A study of Mus musculus with 10 samples.

Results

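Microtubules are hollow polymers of alpha- and beta-tubulin heterodimers, and gamma-tubulin nucleates them. The 10 genes described here in serum-starved mouse fibroblasts are the alpha-tubulin genes Tuba1a, Tuba1b and Tuba1c, the beta-tubulin genes Tubb2a, Tubb2b, Tubb3, Tubb4b, Tubb5 and Tubb6, and the gamma-tubulin gene Tubg1. They were chosen by name, as 10 of the 45232 gene entries of the expression matrix. No measured value entered the rule, but earlier results of these data were known when it was made. Of the 10, 9 reached the minimum mean level for a test and Tubb3 did not.

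The cells were NIH3T3, an immortalized mouse fibroblast line, kept without fetal calf serum for 60 h so that they entered the quiescent state G0. Both clones lacked Lin37, a subunit of the MuvB core of the DREAM complex, after CRISPR/Cas9 nickase cutting. Clone 411-27 carries deletions at exon 4 and is called the exon 4 clone, and clone 632-2 carries an insertion and deletions at exon 6. Each line came from 1 cell, so a clone is 1 mutant line and not a set of independent lines. Every line also held a doxycycline-inducible episome and a hygromycin selection, and the GFP-positive induced cells were sorted before RNA was taken. In the KO groups the episome expressed luciferase, and in the rescue groups it expressed wild-type Lin37. The rescue cells are therefore knockout cells with Lin37 put back by an episome, not unmodified fibroblasts. The exon 4 clone had 2 KO and 2 rescue libraries, and the exon 6 clone had 3 of each, the third being, by the labels, a technical replicate of the second. Over 7557 genes, though, the third library correlated less with the second (r 0.948 in KO and 0.942 in rescue cells) than with the first (0.974 and 0.965). The fits that use it and the order of the levels were therefore also run without it. Group means, SDs, shares, sums, pair counts and correlations between genes were computed from the averaged values only. After the technical replicates were averaged there were 4 KO and 4 rescue replicates.

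Lin37 itself lay between 0.268 and 0.417 rescaled RPKM in the 5 KO libraries and between 2.12 and 5.11 in the 5 rescue libraries, in the direction the labels give. RPKM relates the reads of a gene to its length and to the size of the library, and rescaled RPKM is that value over a library factor, the median ratio to the other libraries. The factor ran from 0.324 to 2.70, and it was higher in the KO than in the same-numbered rescue library in 5 of 5 pairs. The choice of scaling thus moves with genotype, and its part in the results was not tested beyond the alternatives given with them. Fibroblast markers summed to between 524.6 and 858.2 rescaled RPKM, with 9 of 10 genes at 1 or more in every library. Epithelial, endothelial and neuronal marker lists summed to at most 0.550, 0.184 and 0.417. The leukocyte list of 3 genes summed to between 0.676 and 1.49 in KO and between 0.535 and 1.49 in rescue libraries. Cd68 of that list, also expressed outside leukocytes, was higher in KO in 4 of 4 pairs, as were 8.95% of all genes. It did not pass the test (log2 difference 0.27, adjusted p 0.640 by limma), and its part in the results was not tested.

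Tubulin isotypes are made from separate genes whose proteins are nearly alike, and cells adjust the messages of alpha- and beta-tubulin to the amount of free dimer by a cotranslational decay pathway. DREAM represses cell cycle genes in G0 by binding E2F sites and the cell cycle genes homology region (CHR) in their promoters. Microtubules form the mitotic spindle as well as the interphase network, and it is of interest whether the genes for the building blocks moved with the cell cycle genes when Lin37 was absent. The promoter sequences below show which DREAM-type motifs stand in front of the beta-tubulin genes with the 3 highest levels and in front of 2 genes that were called higher in KO cells, Mcm5 and Pcnt. Each is the stretch before the RefSeq start on build GRCm38.p6, outside annotated exons, written in the direction of the gene. Capitals mark CHR words (TTTGAA, or with a C in its middle TTCGAA), E2F words (TTCCCGC is one such word, TTGGCGC is the next, TTCGCGC is another, and the last is TTGCCGC) and the CCAAT box, on either strand.
Tubb5, chr17:35838307-35838551, minus strand: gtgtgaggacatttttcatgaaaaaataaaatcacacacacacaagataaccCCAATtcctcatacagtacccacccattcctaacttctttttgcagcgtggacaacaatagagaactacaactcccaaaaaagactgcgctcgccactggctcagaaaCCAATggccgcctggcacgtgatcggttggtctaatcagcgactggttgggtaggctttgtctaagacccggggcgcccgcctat
Tubb4b, chr2:25224703-25224952, minus strand: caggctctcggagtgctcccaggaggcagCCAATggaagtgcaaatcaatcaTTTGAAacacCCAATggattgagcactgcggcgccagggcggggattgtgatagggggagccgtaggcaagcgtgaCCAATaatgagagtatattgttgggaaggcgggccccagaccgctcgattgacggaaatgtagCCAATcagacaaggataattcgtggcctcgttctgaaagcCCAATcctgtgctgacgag
Tubb2a, chr13:34078009-34078258, minus strand: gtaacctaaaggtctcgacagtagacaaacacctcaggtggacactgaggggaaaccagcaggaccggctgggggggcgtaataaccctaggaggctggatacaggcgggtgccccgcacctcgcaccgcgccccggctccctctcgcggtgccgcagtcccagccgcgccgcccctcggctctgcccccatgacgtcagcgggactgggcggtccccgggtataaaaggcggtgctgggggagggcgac
Mcm5, chr8:75109259-75109508, plus strand: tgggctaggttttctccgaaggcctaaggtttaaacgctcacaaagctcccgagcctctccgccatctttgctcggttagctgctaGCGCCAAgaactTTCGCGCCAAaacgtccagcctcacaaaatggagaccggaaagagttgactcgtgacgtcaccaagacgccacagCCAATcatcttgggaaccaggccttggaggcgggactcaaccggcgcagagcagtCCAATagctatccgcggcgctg
Pcnt, chr10:76442913-76443162, minus strand: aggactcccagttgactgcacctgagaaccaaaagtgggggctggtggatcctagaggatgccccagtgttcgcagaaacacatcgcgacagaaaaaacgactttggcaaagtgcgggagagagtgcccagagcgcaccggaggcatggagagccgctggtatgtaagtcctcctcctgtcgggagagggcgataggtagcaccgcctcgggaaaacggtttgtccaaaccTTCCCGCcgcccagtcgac

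RefSeq promoter windows of 250 bases before to 50 after the start were matched for 7 of the 10 tubulin genes. None was matched for Tubb2b, Tubb6 or Tubg1, so their promoters were not searched. Of those 7, only Tubb4b held a CHR word, at 198 bases before its start, and 19.23% of all 32851 windows hold one. An E2F word was found only for Tubb5, 10 bases after the start, against 9.574% of all windows. A CCAAT word stood in 5 of the 7, as 5 copies in Tubb4b, 2 in Tubb5 and 1 each in Tuba1a, Tuba1c and Tubb3, and 37.41% of all windows hold it. The Tuba1b and Tubb2a windows held none of these words. By comparison, Mcm5, a subunit of the replicative helicase, had 3 E2F words, which overlap in part because 2 of them share bases. Pcnt, which encodes the pericentriolar scaffold protein pericentrin, had 1 E2F word, 19 bases before its start. Not all genes called higher had such words near the start. Clasp2, a microtubule plus-end gene called higher, had no E2F word in any of its 3 windows and a CHR word in 1 of them, and the DREAM target Bub1 had a CHR word, 14 bases after the start, and no E2F word. These are matches of letters only.

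The second set of sequences shows how far a read can tell the isotypes apart. They are the first 90 coding bases of the Tubb2 pair in GENCODE M21, and capitals mark bases of Tubb2b that differ from Tubb2a.
Tubb2a: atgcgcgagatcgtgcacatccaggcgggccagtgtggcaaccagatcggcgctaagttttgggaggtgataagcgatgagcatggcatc
Tubb2b: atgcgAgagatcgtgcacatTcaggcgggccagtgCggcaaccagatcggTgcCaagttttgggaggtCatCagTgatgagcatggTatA

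Tubb2b differed from Tubb2a at 10 of these 90 bases. Over the whole coding region of 1353 bases, Tuba1a and Tuba1b differed at 23 bases and were 98.3% identical. Tubb2a and Tubb2b, with 1335 coding bases each, were 96.5% identical, whereas Tubb2a and Tubb4b were 83.7% identical. Counting all distinct 31-base words of the annotated transcripts, 78.6% of those of Tuba1a, 78.7% of those of Tuba1b and 55.3% of those of Tuba1c also occurred in another gene. The share was 56.4% for Tubb2a, 43.1% for Tubb2b and 53.0% for Tubb4b, the last mostly with the processed pseudogene Tubb4b-ps1. It was 19.3% for Tubg1, nearly all with its paralog Tubg2. For Tubb3, Tubb5 and Tubb6 the share was 3.21%, 3.50% and 3.24%, and no word of 100 bases, the length of a read, occurred elsewhere.

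The separate levels of Tuba1a, Tuba1b and Tuba1c, and to a lesser degree of Tubb2a, Tubb2b and Tubb4b, therefore depend on how reads with several matches were counted and are uncertain. The values of Tubb5 and Tubb6 rest on sequence that is almost entirely their own. Tubb3 shares little sequence, but the entry Gm20388 overlaps it on the same strand, so its reads can be assigned there. Pseudogene copies took a measurable level in the same table. The Tuba1b look-alikes Gm14150, Gm17383, Gm3756, Gm5620 and Gm6682 lay between 1.63 and 9.99 rescaled RPKM over the replicates, and Tubb4b-ps1 between 2.30 and 3.53.

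Among the 10 genes as listed, the highest level in starved fibroblasts was that of Tubb5, the broadly expressed class I beta-tubulin, with a mean of 22.5 rescaled RPKM over the 8 replicates. Tuba1a followed at 11.4 and Tuba1b at 10.4, then Tuba1c at 4.997, Tubb2a at 4.68, Tubb4b at 4.55, Tubb6 at 2.17, Tubg1 at 1.38 and Tubb2b at 0.610. Tubb3, the neuronal class III beta-tubulin, was at the bottom with 0.0116. These are levels per length. The rank of Tubb5 against the alpha genes depends on the reads given to pseudogenes, since the 5 Tuba1b look-alikes had means that summed to 18.9 in KO and 20.9 in rescue replicates. Tubb5 was above Tuba1a in 8 of 8 replicates, Tuba1b was above Tuba1c in 8, Tubg1 was above Tubb2b in 8 and Tubb2b was above Tubb3 in 8. Tubb4b exceeded Tubb6, and Tubb6 exceeded Tubg1, in 7 of 8 each. Tuba1a exceeded Tuba1b in only 5 of 8, Tuba1c exceeded Tubb2a in 5 and Tubb2a exceeded Tubb4b in 4, so the order of those neighbours was not fixed. It went partly with clone. In the exon 4 clone the means of Tubb2a were below those of Tubb4b (4.47 against 5.06 in KO, 3.33 against 5.18 in rescue). In the exon 6 clone they were above (4.55 against 4.26 in KO, 6.38 against 3.72 in rescue). The order of all 10 was the same with the RPKM values as deposited and without the technical replicates.

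**Figure D1:**
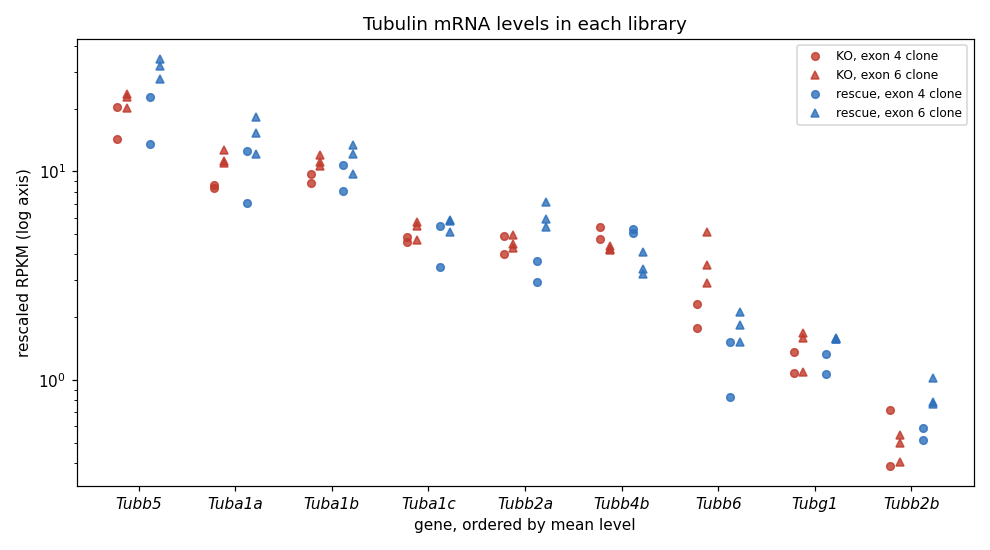
Rescaled RPKM (log axis) of 9 tubulin genes in each of the 10 libraries, ordered by mean level, with KO in red, rescue in blue, circles for the exon 4 clone and triangles for the exon 6 clone. Tubb6 is the gene whose KO points lie above the rescue points of the same clone in both clones; Tubb3, with no library above 0.0488, is not drawn.

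Tubb5 was read at 20.4 and 14.3 rescaled RPKM in the exon 4 KO libraries and at 22.7 and 13.5 in the exon 4 rescue libraries. With exon 6 mutated it was 22.8, 20.2 and 23.5 in KO and 34.5, 27.8 and 31.9 in rescue cells. The KO and rescue values overlapped in the first clone, and in the second every KO library was below every rescue library. In that second clone, 20.9% of all genes tested had both KO replicates below both rescue replicates. In bulk RNA, a difference in the number of cells that express a gene and in the RNA per cell cannot be told apart. The mean level of Tubb5 was 19.8 ± 3.80 (SD, n = 4) in KO and 25.1 ± 9.14 (SD, n = 4) in rescue replicates. The fitted log2 difference, KO against rescue, was -0.28 (95% interval -0.72 to 0.17), with an adjusted p of 0.760 by limma.

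Among the alpha genes, Tuba1a is the isotype known for its high level in developing neurons, while Tuba1b and Tuba1c are widespread. Tuba1a had levels of 8.28 and 8.64 in the exon 4 KO, 12.5 and 7.05 in the exon 4 rescue, 11.2, 12.6 and 10.9 in the exon 6 KO and 18.2, 15.2 and 12.2 in the exon 6 rescue libraries. Tuba1b had 8.82 and 9.67, then 10.7 and 8.02, then 10.5, 11.1 and 12.0, and last 13.4, 12.2 and 9.68 in the same order of groups. Neither gene separated KO from rescue over both clones. Tuba1c had 4.59 and 4.84 in the exon 4 KO, 5.47 and 3.49 in the exon 4 rescue, 4.71, 5.46 and 5.72 in the exon 6 KO and 5.81, 5.85 and 5.10 in the exon 6 rescue libraries. Its log2 difference was -0.01 (95% interval -0.33 to 0.30), that of Tuba1b was -0.06 (-0.34 to 0.21) and that of Tuba1a was -0.29 (-0.70 to 0.11). The summed alpha level was 25.0 ± 3.24 rescaled RPKM in KO and 28.7 ± 7.74 in rescue replicates (SD, n = 4 each). A read moved among the 3 genes still enters that sum, but RPKM is per length, so the sum can shift with the assignment. Reads assigned to other entries leave it, such as the listed pseudogenes or AC157548.1, which holds 61.1% of the 31-base words of Tuba1b.

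Of the remaining beta genes, Tubb4b encodes the class IVb isotype and Tubb2a and Tubb2b the class II isotypes. Tubb4b was at 4.73 and 5.38 in the exon 4 KO, 5.06 and 5.29 in the exon 4 rescue, 4.24, 4.40 and 4.19 in the exon 6 KO and 4.13, 3.40 and 3.22 in the exon 6 rescue libraries. Its log2 difference was 0.07 (95% interval -0.16 to 0.31). Its promoter window, printed above, is the one that holds a CHR word. Tubb2a was at 4.01 and 4.92 in the exon 4 KO and at 3.71 and 2.95 in the exon 4 rescue libraries. It was at 4.49, 4.28 and 4.95 in the exon 6 KO and at 7.10, 5.91 and 5.40 in the exon 6 rescue libraries. KO libraries were thus above rescue libraries with exon 4 mutated and below them with exon 6 mutated, and over both the log2 difference was -0.03 (-0.44 to 0.38). With exon 6 mutated, 20.9% of all genes tested had both KO replicates below both rescue replicates. No such share was counted for the exon 4 clone. Tubb2b lay between 0.389 and 1.02 rescaled RPKM in all libraries, with a log2 difference of -0.22 (-0.53 to 0.09).

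Tubg1, the widely expressed gamma-tubulin gene, was at 1.07 and 1.36 in the exon 4 KO, 1.33 and 1.07 in the exon 4 rescue, 1.68, 1.09 and 1.59 in the exon 6 KO and 1.59, 1.57 and 1.58 in the exon 6 rescue libraries. Groups overlapped in both clones. The log2 difference was -0.02 (95% interval -0.26 to 0.22). Tubb3 was listed at 0 in 4 of 10 libraries and reached 0.0488 in the highest, an exon 4 rescue library, so no fold change is given for it.

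Tubb6, the class V beta-tubulin, was the member with the largest difference between KO and rescue cells. It was at 2.32 and 1.78 rescaled RPKM in the exon 4 KO libraries and at 1.53 and 0.832 in the exon 4 rescue libraries. Values were 2.91, 3.54 and 5.13 in the exon 6 KO and 1.83, 1.51 and 2.11 in the exon 6 rescue libraries. Within each clone all KO libraries were above all rescue libraries, and the 2 ranges met only across clones. In the exon 6 clone, 21.8% of all genes tested had both KO replicates above both rescue replicates. The share of genes so separated in both clones was not counted. The mean was 2.84 ± 1.10 in KO and 1.50 ± 0.466 in rescue replicates (SD, n = 4 each). KO was higher in 4 of 4 same-numbered pairs, by 0.47 and 0.78 on the log2 scale for the exon 4 pairs and by 0.55 and 1.07 for the exon 6 pairs. In the exon 6 KO, libraries 2 and 3, the technical replicates, differed by 0.48 on that scale, and libraries 1 and 2 by 0.25. Replicate 2 as fitted, the average of libraries 2 and 3, was at 4.34 against 2.91 for replicate 1.

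The fitted log2 difference of Tubb6 was 0.72 (SE 0.17, 95% interval 0.34 to 1.10), or 1.64-fold with 0.5 added to each value. The ratio of its KO to its rescue mean, with nothing added, was 1.89. The fitted difference had an unadjusted p of 0.00227 and an adjusted p of 0.1003 by limma over all 16866 genes tested, so it did not pass the threshold of 0.05. A fit blocked on replicate number gave the same difference with an adjusted p of 0.0349, which passed. Without the third libraries it was 0.70. The difference was positive under all 20 alternative settings tried and passed under 5 of them, with adjusted p from 0.00525 to 0.616. It was 0.62 (95% interval -0.03 to 1.28) in the exon 4 clone alone and 0.81 (0.34 to 1.28) in the exon 6 clone alone.

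**Figure D2:**
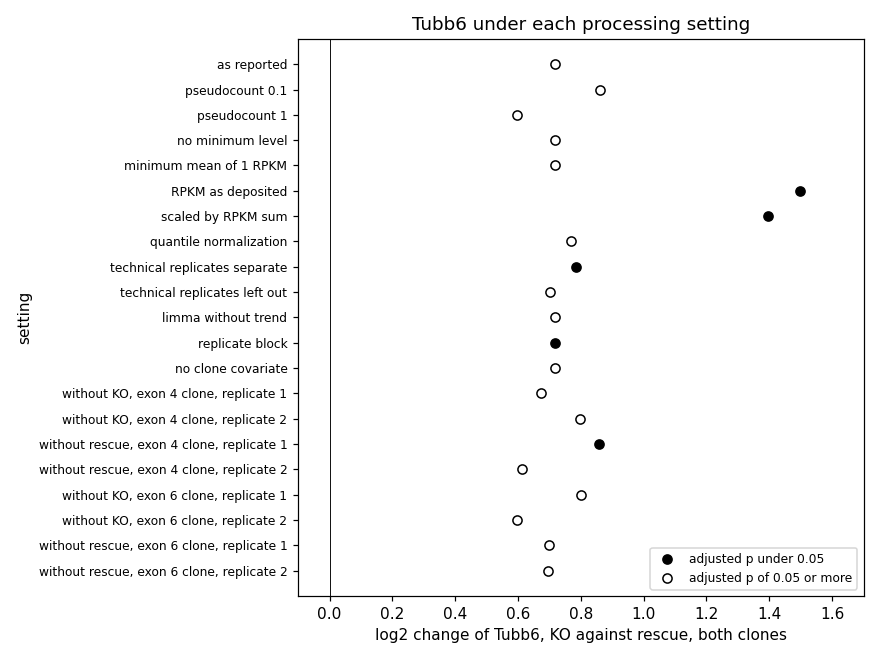
The log2 difference of Tubb6 between KO and rescue cells over both clones (x axis) under the reported fit and 20 alternatives (y axis), filled where the adjusted p was under 0.05. All points are above 0, 5 alternatives pass, and the 2 at the right, 1.50 and 1.40, use library scalings that shift all genes upward.

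Over both clones, none of the 9 tested tubulin genes was called higher or lower in KO cells, where 1.61% of all 16866 genes were called higher and 0.083% lower at an adjusted p under 0.05. At an unadjusted p under 0.05 there was 1 tubulin gene, Tubb6, and 8.79% of all genes. Only Tubb6 was higher in all 4 pairs, as were 8.95% of all genes, and no tubulin gene had 4 KO replicates above all 4 rescue replicates, as 3.1% of all genes did. The median log2 difference of the 9 was -0.03, equal to the -0.03 of all genes tested. Apart from Tubb6, the upper 95% limits were at most 0.38. Under this scaling, a doubling in KO cells thus lies outside the interval of each of those 8 genes. The intervals hold no uncertainty of the scaling itself, whose factor was higher in KO in 5 of 5 same-numbered pairs.

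The RPKM values as deposited give another picture of direction. They move the median of all genes to 0.64 over both clones, and the 9 tubulin genes then have a median of 0.88, with the 7 genes below 0 turning positive. Scaling by the RPKM sum moves the 2 medians to 0.52 and 0.75. Under both, Tubb6 was the only member called, at 1.50 and 1.40, where 5.35% and 5.41% of all genes were called higher.

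In the exon 6 clone, 0 of 9 tubulin genes passed, against 1.24% of 15301 genes called higher and 0.0654% called lower by limma. At an unadjusted p under 0.05 there were 5, namely Tubb5 (log2 difference -0.52), Tuba1a (-0.45), Tubb2a (-0.44), Tubb2b (-0.43) and Tubb6 (0.81), and 11.8% of all genes reached that level. Those first 4 genes also had both KO replicates below both rescue replicates, as 20.9% of all genes tested there did. Tubb4b and Tubb6 had both above, as 21.8% did. With RPKM as deposited, 5 tubulin genes were called higher in this clone (Tubb4b, Tubg1, Tuba1b, Tuba1c and Tubb6), where 61.4% of all genes were called higher and their median was 0.69. With scaling by the RPKM sum it was 2, where 30.9% of all genes were. In the exon 4 clone no gene was called at all (0% of 18751), and none of the 9 tubulin genes had an unadjusted p under 0.05, as 4.1% of all genes did.

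The difference between the clones was tested as an interaction, and no gene passed (0% of 16866). Tubb2a had the largest of the members, with the KO difference 0.81 lower on the log2 scale in the exon 6 than in the exon 4 clone (95% interval of the signed difference -1.39 to -0.24, unadjusted p 0.0120, adjusted p 0.997 by limma). It was the 1 member with an unadjusted p under 0.05, at which 4.06% of all genes stood. For Tubb6 the interaction was 0.18 (-0.64 to 1.01).

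The clones were also compared over both episomes. Compared with the exon 4 clone, the exon 6 clone had log2 differences of 0.61 for Tubb5, 0.59 for Tubb6, 0.57 for Tuba1a, 0.44 for Tubb2a, 0.31 for Tuba1b and 0.26 for Tubg1, and -0.33 for Tubb4b. These 7 of 9 had an unadjusted p under 0.05, as 30.9% of all genes did. None passed after adjustment, where 13.6% of all genes passed, and the nearest was Tubb6 with an adjusted p of 0.0510 by limma. For Tubb2a the difference lay in the rescue cells, with means of 3.33 and 6.38 in the exon 4 and exon 6 clones against 4.47 and 4.55 in KO cells. Since each clone is 1 line, clone and line history cannot be told apart.

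**Figure D3:**
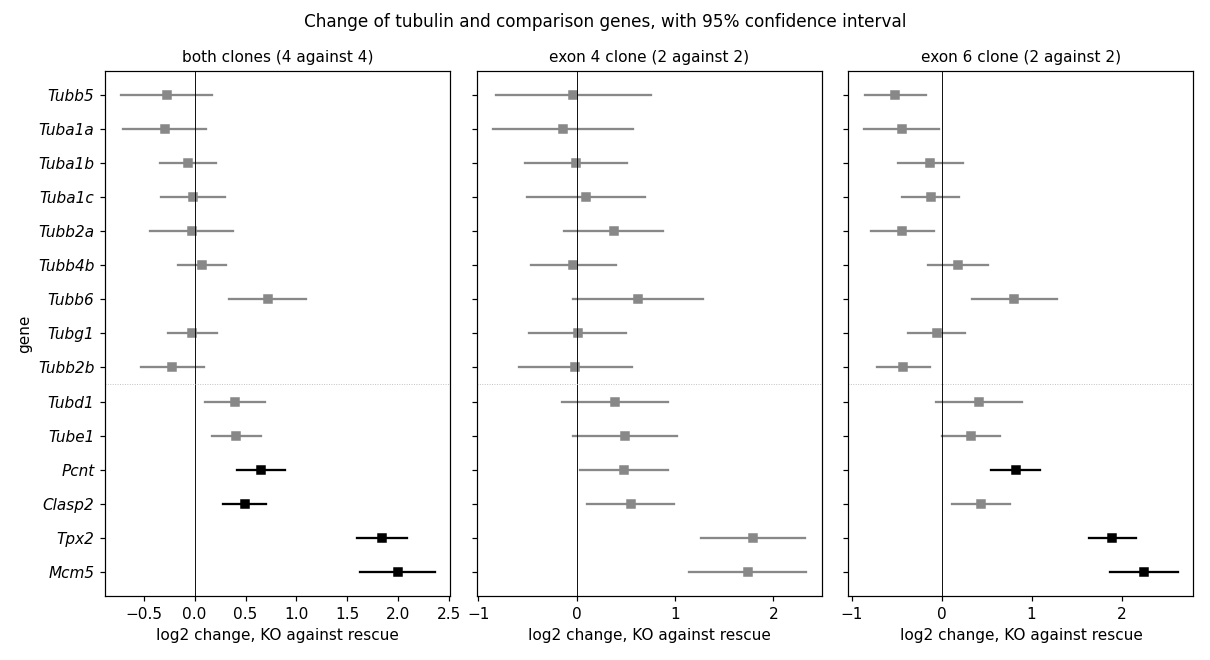
Log2 differences between KO and rescue cells with 95% confidence intervals for 9 tubulin genes, above the dotted line, and 6 other genes, in both clones and in each clone; black marks an adjusted p under 0.05. Above the line, the intervals other than that of Tubb6 reach at most 0.38 over both clones. Below it, those of the delta- and epsilon-tubulin genes Tubd1 and Tube1 reach 0.69 and 0.65, and Tpx2 and Mcm5 sit at 1.84 and 1.99.

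Because a share within a library does not depend on its scaling, the isotype make-up was also computed. Replicate 2 of each exon 6 group is an exception, since it averages libraries 2 and 3 after rescaling. Its shares depend on the scaling, and none were computed without library 3. Tubb5 made up 60.8% ± 5.60 of the summed beta-tubulin level in KO and 67.3% ± 6.26 in rescue replicates (SD, n = 4 each), and it was the lower in KO in 4 of 4 pairs. Tubb6 made up 7.28% and 6.57% in the exon 4 KO, 4.55% and 3.60% in the exon 4 rescue, 8.33% and 12.2% in the exon 6 KO and 3.78% and 4.36% in the exon 6 rescue replicates. Every KO share of Tubb6 was above every rescue share, with means of 8.60% ± 2.52 and 4.07% ± 0.455 (SD, n = 4 each). By level, 3.1% of all genes had every KO replicate above every rescue replicate, and 2428 of 16866 were lower in all 4 pairs. No such counts were made for shares. Tubb2a held 14.1% and 13.0% and Tubb4b 14.7% and 13.6% in KO and rescue. The shares were computed after the values of Tubb6 were known and were not tested. The ratio of the summed alpha to the summed beta level was 0.776 ± 0.0751 in KO and 0.788 ± 0.0527 in rescue replicates (SD, n = 4 each), higher in KO in 2 of 4 pairs.

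**Figure D4:**
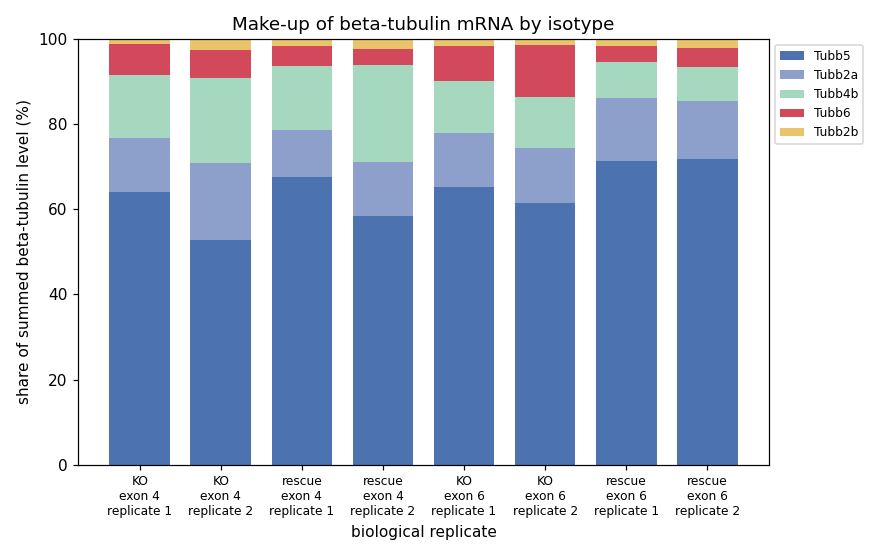
Share of each beta-tubulin gene in the summed beta-tubulin level (% of rescaled RPKM, y axis) in each of the 8 biological replicates (x axis), stacked from Tubb5 at the bottom. The red Tubb6 segment is between 6.57% and 12.2% in the 4 KO bars and between 3.60% and 4.55% in the 4 rescue bars; Tubb3, under 0.22% throughout, is left out.

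Of 10 further tubulin genes (Tuba3a, Tuba3b, Tuba4a, Tuba8, Tubal3, Tubb1, Tubb4a, Tubg2, Tubd1 and Tube1), 3 were high enough to test and none was called. Over all genes tested, 1.61% were called higher and 0.083% lower. Tube1 and Tubd1 encode epsilon- and delta-tubulin, which are needed for the triplet microtubules of centrioles. Tube1 was at 0.338 and 0.424 in the exon 4 KO, 0.150 and 0.103 in the exon 4 rescue, 0.370, 0.304 and 0.420 in the exon 6 KO and 0.141, 0.282 and 0.205 in the exon 6 rescue libraries, with no overlap. Tubd1 was at 0.301 and 0.441 in the exon 4 KO, 0.178 and 0.149 in the exon 4 rescue, 0.530, 0.335 and 0.258 in the exon 6 KO and 0.107, 0.192 and 0.335 in the exon 6 rescue libraries. Both were higher in KO in 4 of 4 pairs, as were 8.95% of all genes. For both, every KO replicate was above every rescue replicate, as in 3.1% of all genes, though single exon 6 libraries of Tubd1 overlapped. The log2 differences were 0.41 (SE 0.10, adjusted p 0.147 by limma) for Tube1 and 0.40 (SE 0.13, adjusted p 0.314) for Tubd1. They are on the scale of log2(rescaled RPKM + 0.5), which understates changes of genes at this level. Tuba4a was between 0.141 and 0.260 in the exon 4 libraries and between 0.856 and 1.17 in the exon 6 libraries, with a KO difference of -0.04.

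Partners of tubulin were described from lists. The gamma-tubulin ring complex and its anchors had 10 of 10 genes tested, 1 called higher and none lower, with a median log2 difference of 0.08. Of all 16866 genes tested, 1.61% were called higher and 0.083% lower. The gene called was Pcnt, at 1.74 and 1.82 rescaled RPKM in the exon 4 KO, 1.23 and 1.04 in the exon 4 rescue, 1.95, 1.91 and 2.05 in the exon 6 KO and 0.952, 0.911 and 0.749 in the exon 6 rescue libraries. KO and rescue did not overlap, as in 3.1% of all genes, and the log2 difference was 0.65 (SE 0.10, adjusted p 0.0137 by limma). Without any 1 of the exon 6 replicates the adjusted p of Pcnt was between 0.0618 and 0.0856, and with no minimum level it was 0.0584. In the exon 6 clone alone it was 0.82 with an adjusted p of 0.0404. The gamma-tubulin complex proteins Tubgcp2 to Tubgcp6 had log2 differences from -0.08 to 0.24, and none was called.

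Tubulin folding was measured through 6 cofactor genes and 14 chaperonin and prefoldin genes, all tested and none called. For this and the lists that follow, 1.61% of all genes tested were called higher and 0.083% lower. The median log2 difference was -0.07 for the cofactors, where Tbce (0.18) and Arl2 (0.15) were farthest from 0, and -0.02 for the chaperonin and prefoldin list, where Pfdn6 (0.57, adjusted p 0.301 by limma) and Pfdn2 (-0.34, adjusted p 0.281) were. Ttc5 and Scaper, which act in the decay of tubulin messages, had 0.05 and 0.03. Of 17 tubulin-modifying enzyme genes, 15 were tested and none was called, with a median of -0.12 and the farthest at -0.33 (Svbp, a cofactor of the detyrosinating vasohibins) and -0.29 (Ttll1, a polyglutamylase subunit). Of 6 severing enzyme genes 5 were tested and none was called, with Fignl1 at 0.46 and Spast, the spastin gene, at -0.17.

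Of 18 genes for microtubule dynamics and structural microtubule-associated proteins, 15 were tested, 2 were called higher and none lower, with a median of -0.02. Among all genes tested, 1.61% were called higher and 0.083% lower. Tpx2, a spindle assembly factor that activates Aurora A, was between 2.01 and 2.40 rescaled RPKM in the KO and between 0.164 and 0.425 in the rescue libraries. Its log2 difference was 1.84 (SE 0.11, adjusted p 9.9e-05 by limma), and 1.89 in the exon 6 clone alone. Clasp2, which binds growing plus ends, was at 1.25 and 1.24 in the exon 4 KO, 0.650 and 0.735 in the exon 4 rescue, 0.811, 0.952 and 0.867 in the exon 6 KO and 0.432, 0.820 and 0.347 in the exon 6 rescue libraries. Its log2 difference was 0.49 (SE 0.09, adjusted p 0.0362 by limma), and leaving out any 1 replicate raised the adjusted p to between 0.0554 and 0.175. Other settings also lost the call, with adjusted p of 0.0746 for separate technical replicates, 0.278 without them, 0.282 without the clone covariate and 0.123 with no minimum level.

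The DREAM targets that the study itself assayed by qPCR or by promoter reporters are no independent choice, and they were used only as a scale. All 8 were tested and 6 were called higher (Mcm5, Cdc45, Nek2, Bub1, Ttk and Ccnb2), as were 1.61% of all genes. Their median log2 difference was 1.35 over the 8. That is on log2(rescaled RPKM + 0.5), which understates the change of genes as low as these in rescue cells. The fitted folds of Mcm5, Bub1 and Ttk were 3.98, 2.58 and 2.51. The ratios of their KO to their rescue means were 9.70, 11.7 and 17.9. Mcm5 was at 1.72 and 1.85 in the exon 4 KO, 0.322 and 0.0708 in the exon 4 rescue, 3.70, 2.99 and 3.70 in the exon 6 KO and 0.254, 0.343 and 0.555 in the exon 6 rescue libraries, a log2 difference of 1.99. The actin and vimentin cytoskeleton, another structural comparison, had 13 of 14 genes tested and none called, where 1.61% of all genes were called higher and 0.083% lower. Its median was -0.08, with Tagln at -0.25 and Myl6 at -0.23.

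Over the 8 replicates, the profile of Tubb6 was most like those of Hist1h3h (Pearson r 0.971), Vars (0.968) and Hist1h3i (0.965) among 6062 protein-coding genes with a mean of 1 RPKM or more. The nearest to Tubb5 were Mtch1 (0.981), Rpl28 (0.978) and Fzd2 (0.976), the nearest to Tuba1a were Zfp651 (0.982), Rpl27 (0.980) and 2310061I04Rik (0.970), and Ndufs4 was among the first 3 for both Tuba1b (0.959) and Tuba1c (0.964). The nearest genes were Tsta3 (0.973), Clic4 (0.958) and Cul2 (0.957) for Tubb4b, Ergic1 (0.956) for Tubb2a and Rpl9-ps6 (0.953) for Tubb2b. These correlations describe 8 libraries that share clone, depth and scaling, and the best of so many genes is high by selection.

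In the GENCODE M21 annotation of mm10, Tuba1a (chr15:98949837-98953703), Tuba1b (chr15:98931425-98934565) and Tuba1c (chr15:99029891-99038110) lie near each other, as do Tubb2a (chr13:34074274-34078007) and Tubb2b (chr13:34126748-34130466). Tubb3 is at chr8:123411424-123422015, where Gm20388 overlaps it on the same strand. Tubb4b is at chr2:25222160-25224702 and overlaps Fam166a on the opposite strand. The libraries are not stated to be counted by strand, so the 2 cannot be separated there. Tubb5 is at chr17:35833921-35838306 and Tubg1 at chr11:101119938-101126419, and Tubb6 is at chr18:67390717-67402749 on the plus strand.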

How the data were processed

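Total RNA from 10 libraries of sorted NIH3T3 cells was depleted of ribosomal RNA and sequenced by the authors with paired 100-base reads. Per the methods of the study, reads were trimmed with cutadapt, mapped to mm10 with segemehl and counted per GENCODE vM5 gene with rnacounter. The file deposited by the authors holds RPKM values, with no counts. At most 21.4% of low values were whole multiples of the commonest step (tolerance 0.05), so reads could not be recovered and the depth is unknown.

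Libraries were rescaled by their median ratio over 8523 genes with a mean of 1 RPKM or more and above 0 in every library. Library 3 of each exon 6 group was averaged with library 2. All genes whose mean reached 0.1 RPKM entered limma 3.58.1 (R 4.3.3, trended variance) on log2(rescaled RPKM + 0.5), two-sided, with the clone as covariate over both clones and Benjamini-Hochberg adjustment over all genes at 0.05. A log2 change is on that scale and understates the change of low genes. The script was tested on simulated data. The authors' edgeR test needs counts and was not repeated. The labels call samples 1 and 2 of a group biological replicates, without saying how they were grown.

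KO and rescue samples with the same number in the labels deviated together from their group means (r 0.477 in the exon 4 and 0.360 in the exon 6 clone, over 7550 genes), so the number was also fitted as a replicate block. Other alternatives were the pseudocount, the minimum level, the scaling, the treatment of technical replicates, the variance trend, the clone covariate and leaving out each replicate. The sequences are from GENCODE M21 and from RefSeq on GRCm38.p6. The genes, the lists of partners, markers and comparison genes and the tests were chosen with earlier results of these data known. All 10 members are named, other tubulin genes by level and change, and of each list the genes called or, with none called, the 2 with the largest change. The genes most like Tubg1 are not reported here.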

Additional observations from a re-analysis of the deposited data

Results flagged for a closer look

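Tubb2a was higher in both KO replicates of the exon 4 clone and lower in both of the exon 6 clone than in the same-numbered rescue replicates. The interaction term was -0.81 on the log2 scale (SE 0.24), with an unadjusted p of 0.0120 and an adjusted p of 0.997 by limma over all genes, so the difference between clones did not pass. It was negative under all alternatives tried for it, and 56.4% of the 31-base words of Tubb2a occur in other genes. Groups of 2 or 3 libraries are too small for a check of single outlying samples.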

How the results depend on the processing

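The signs of most small differences depended on the scaling of the libraries. With RPKM as deposited, the KO differences that turned positive on the log2 scale were, over both clones, Tuba1a 0.68, Tuba1b 0.93, Tuba1c 0.91, Tubb2a 0.88, Tubb2b 0.33, Tubb5 0.71, Tubg1 0.74, in the exon 6 clone Tuba1a 0.55, Tuba1b 0.91, Tuba1c 0.85, Tubb2a 0.53, Tubb2b 0.23, Tubb5 0.46, Tubg1 0.81, and in the exon 4 clone Tuba1a 0.81, Tuba1b 0.96, Tubb2b 0.43, Tubb4b 0.89, Tubb5 0.96. With scaling by the RPKM sum, the KO differences that turned positive on the log2 scale were, over both clones, Tuba1a 0.53, Tuba1b 0.78, Tuba1c 0.78, Tubb2a 0.75, Tubb2b 0.26, Tubb5 0.56, Tubg1 0.63, in the exon 6 clone Tuba1a 0.51, Tuba1b 0.86, Tuba1c 0.80, Tubb2a 0.49, Tubb2b 0.19, Tubb5 0.43, Tubg1 0.75, and in the exon 4 clone Tuba1a 0.56, Tuba1b 0.70, Tubb2b 0.33, Tubb4b 0.64, Tubb5 0.69. None of these passed except, with RPKM as deposited in the exon 6 clone, Tuba1b, Tuba1c and Tubg1. The median of all genes moved to 0.64, 0.69 and 0.57 in these 3 comparisons under the first scaling and to 0.52, 0.64 and 0.38 under the second, and the median of the tubulin genes to 0.88, 0.81 and 0.96 and to 0.75, 0.75 and 0.69. Under quantile normalization Tuba1c was 0.015 over both clones and Tubb2b 0.12 in the exon 4 clone. The cause of each shift was not tested.

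Over both clones 1 tubulin gene, Tubb6, was called higher with RPKM as deposited (1.499), scaling by RPKM sum (1.40), technical replicates kept separate (0.78, adjusted p 0.0320 by limma) and the replicate block (0.72), and without 1 replicate the count was 0 to 1 and its difference 0.60 to 0.86, the call being that without exon 4 rescue replicate 1. Of all genes, 5.35%, 5.41%, 2.18%, 1.64% and 1.47% were called higher under these 5 settings. The block changed no other call of a tubulin gene. In the exon 6 clone 5 were called higher with RPKM as deposited (61.4% of all genes) and 2 with the RPKM sum (30.9%), and the median was -0.23 without the technical replicates and -0.27 to -0.086 without 1 replicate. Between clones the tubulin genes called higher were 1 with pseudocount 0.1 (6.94% of all genes), 2 with a minimum of 1 RPKM (12.5%), 5 with RPKM as deposited (15.2%), 1 with quantile normalization (8%), 3 with separate technical replicates (8%) and 0 to 2 without 1 replicate, and those called lower were 1 with a minimum of 1 RPKM (11.7%), 1 with separate technical replicates (9.61%) and 0 to 1 without 1 replicate.

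Leaving out 1 replicate moved Tuba1b between -0.16 and 0.0038, Tuba1c between -0.15 and 0.079, Tubb2a between -0.17 and 0.11, Tubb4b between -0.0035 and 0.13 and Tubg1 between -0.076 and 0.034 over both clones. With exon 6 mutated Tuba1b lay between -0.27 and 0.014 and Tubg1 between -0.18 and 0.066. The exon 4 ranges were -0.53 to 0.25 for Tuba1a, -0.20 to 0.19 for Tuba1b, -0.19 to 0.38 for Tuba1c, -0.24 to 0.22 for Tubb2b, -0.12 to 0.051 for Tubb4b, -0.40 to 0.33 for Tubb5 and -0.11 to 0.13 for Tubg1. None of these passed. A lone sample left in an arm was assumed to vary like the others.

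Counts over all genes moved as well: 271 called higher over both clones became 93 with a minimum of 1 RPKM, 171 with no minimum, 875 with RPKM as deposited and 898 with the RPKM sum, and 14 called lower became 27 with the block. In the exon 6 clone 189 became 0 with no minimum, 10040 with RPKM as deposited and 4898 with the RPKM sum. Few replicates and an unknown depth limit what differences of low genes can be seen.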
